A study of Mus musculus with 6 samples.

Results

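This account covers p53 and a set of its target genes in mouse kidney. The set holds 31 genes chosen by symbol: Trp53, which encodes p53, its regulators Mdm2 and Mdm4, and 28 genes known as p53 targets. All 31 were found among the 51804 gene symbols of the deposited table. The genes lie on 17 chromosomes. The libraries are bulk RNA-seq of kidney, 3 from mice of genotype Ccnb1f/f;Cdh16-Cre, called knockout here by their label, and 3 from mice labelled Ccnb1f/f with no Cre named, the controls. Both groups carry the floxed Ccnb1 alleles (cyclin B1, which activates Cdk1 for mitosis), and the labels name the Cre transgene as the difference between them. The Cdh16 promoter is active in tubular epithelium, so the tissue also holds kidney cells that it does not target. The sources used here give no age, sex, strain or floxed exons. Separate animals are not stated, so a p-value measures the spread among these libraries alone, and that spread may be technical. The extraction text names both mouse kidney and cultured cells, and the tissue label is kidney.

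p53 is a transcription factor that cells keep at a low level through the ubiquitin ligase Mdm2, itself a p53 target, and through its relative Mdm4. DNA damage, ribosome stress or failed division stabilise the protein, mostly without a change in Trp53 mRNA, and its targets then slow the cell cycle, repair DNA, adjust metabolism or start apoptosis. In the kidney, p53 target genes are known to respond to toxic and ischaemic injury of the tubule. The mRNA of the targets, rather than that of Trp53, is therefore the usual transcript readout of p53 activity.

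The p53 protein binds DNA as a tetramer, at a pair of 10-base half-sites that lie next to each other or a few bases apart. Promoter windows of 300 bases (250 before and 50 after a start site; RefSeq, GRCm38.p6) were found for 23 of the 31 genes. The windows were searched for 2 copies of the p53 half-site, which reads the same on both strands, with at most 3 bases between them, an exact C and G in each half-site core and at most 2 other departures. These limits were chosen after several had been tried. Matches were found for 4 of the 23 genes (17.4%), against 418 of 27025 genes with a window (1.55%). The 4 stretches are shown because, of the 23 windows, these held a p53-like sequence under the limits chosen. The 8 genes without a window were not searched. Since the limits were chosen after trials, the 2 shares describe the windows and carry no test. Capitals mark the whole match and the lower case the 20 bases on each side, 5′ to 3′ on the strand of the gene.
Ccng1: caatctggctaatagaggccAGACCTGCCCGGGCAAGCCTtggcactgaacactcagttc
Rps27l: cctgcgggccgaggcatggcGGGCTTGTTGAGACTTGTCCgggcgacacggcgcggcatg
Bax: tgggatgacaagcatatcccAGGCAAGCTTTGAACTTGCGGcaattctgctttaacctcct
Sesn1: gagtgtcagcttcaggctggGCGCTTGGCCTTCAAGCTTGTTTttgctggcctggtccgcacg

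The Ccng1 stretch lies at chr11:40755442-40755501 on the minus strand, with the match from 195 to 176 bases before the start site and 1 departure. The Rps27l stretch (chr9:66946276-66946335, plus strand) also has 1 departure, 117 to 98 bases before the start. The Bax stretch (chr7:45467059-45467119, minus strand; 1 base between half-sites) and the Sesn1 stretch (chr10:41887233-41887295, plus strand; 3 bases between) have 2 departures each. The Rps27l and Sesn1 stretches lie inside the spans of their genes in the deposited table, 66946086 to 66949516 and 41809935 to 41908424. Their windows thus belong to start sites within those spans. A match of letters is a description of the window and not a measured binding site. Of these 4 genes, Ccng1 stood higher in every knockout library than in every control, while the groups overlapped for Rps27l, Bax and Sesn1.

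The libraries held 16061435 to 21261226 estimated counts, and 15017 genes passed the filter on low counts, all 31 genes of the set among them. The kidney label was met by 10 tubule markers, which summed to 16676 to 18847 CPM (counts scaled to library size, here with TMM factors). The targeted gene Ccnb1 was rare and not lower by label, at 0.507 to 1.04 CPM in the knockout libraries and 0.409 to 0.861 CPM in the controls, so it does not check the labels. Control 2 lay apart on the first principal component (-49.6, the others between -7.23 and 22.1). Control 3 held 4523 CPM of 15 immediate early and heat shock genes, against 650 to 1137 CPM in the other 5 libraries. Macrophage markers summed to 164 to 221 CPM in the knockout libraries and 144 to 162 CPM in the controls (10 of 10 genes higher, 0 called). Of all tested genes, 49.0% were higher by label and 0.0133% were called. Groups did not overlap for 1 of the 10, higher by label, against 4.10% of all tested genes. Markers of endothelium and stroma summed to 259 to 338 CPM and 300 to 352 CPM (8 of 8 lower, 0 called, beside the same shares). Of these 8, 3 had unadjusted p under 0.05 by the edgeR test given below, against 3.23% of all tested genes. Groups did not overlap for 2 of the 8, lower by label, against 4.08% of all tested genes. Lymphocyte markers summed to 100 to 180 CPM and 96 to 372 CPM. The part of other cell types in the results on p53 genes was not tested.

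No gene of the p53 set passed the threshold of the test between genotypes. The test was edgeR's quasi-likelihood test with Benjamini-Hochberg adjustment over the 15017 genes, called at an adjusted p under 0.05, and a log2 fold change is knockout over control. Of the 31 genes, 0 were called, where 0.0133% of all tested genes were called, and the smallest adjusted p in the set was 0.9995. DESeq2 called 0 as well. Without adjustment, 3 genes of the set had p under 0.05 by edgeR (9.68%), Trp53inp1, Ccng1 and Phlda3, against 3.23% of all tested genes. By DESeq2, 3 genes of the set had such a value, and its share over all genes was not computed. In whole tissue, a different number of cells of a type and a different amount of RNA per cell cannot be told apart.

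Fitted values above 0 were nevertheless the more frequent in the set. They numbered 24 of 31 (77.4%), against 49.0% of all tested genes, with a median log2 fold change of 0.135 against -0.005. The values ran from -0.44 for Btg2 to 0.75 for Phlda3, and 9 genes lay within 0.1 of 0. Without knockout 3 the median was 0.081 and 18 of the 31 were above 0. In 4 genes the lowest knockout library stood above the highest control (12.9%, against 4.10% of all tested genes), and in 0 the reverse held (4.08% of all tested genes). These 4 were Ccng1, Trp53inp1, Phlda3 and Aen. Scaled by library total without TMM, or in the deposited FPKM, 8 genes did not overlap (25.8%, against 4.78% and 4.39% of all tested genes), with Plk2, Ei24, Perp and Zmat3 added. Leaving out 1 library raised the share over all tested genes as well. Without knockout 1 there were 6 genes of the set (19.4%, against 10.8% of all tested genes), without knockout 2 there were 4 (12.9% against 7.03%) and without knockout 3 there were 8 (25.8% against 7.11%). Without control 1 there were 6 (19.4% against 10.7%), without control 2 there were 11 (35.5% against 10%) and without control 3 there were 7 (22.6% against 7.85%). These counts were added after seeing the data, and the 4 genes were in each of them. Where a library was left out this was fixed in advance. Groups that do not overlap over all libraries cannot overlap over fewer of them. Since the set was drawn up with earlier results of these data known, the counts and medians describe it and carry no test.

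**Figure D1:**
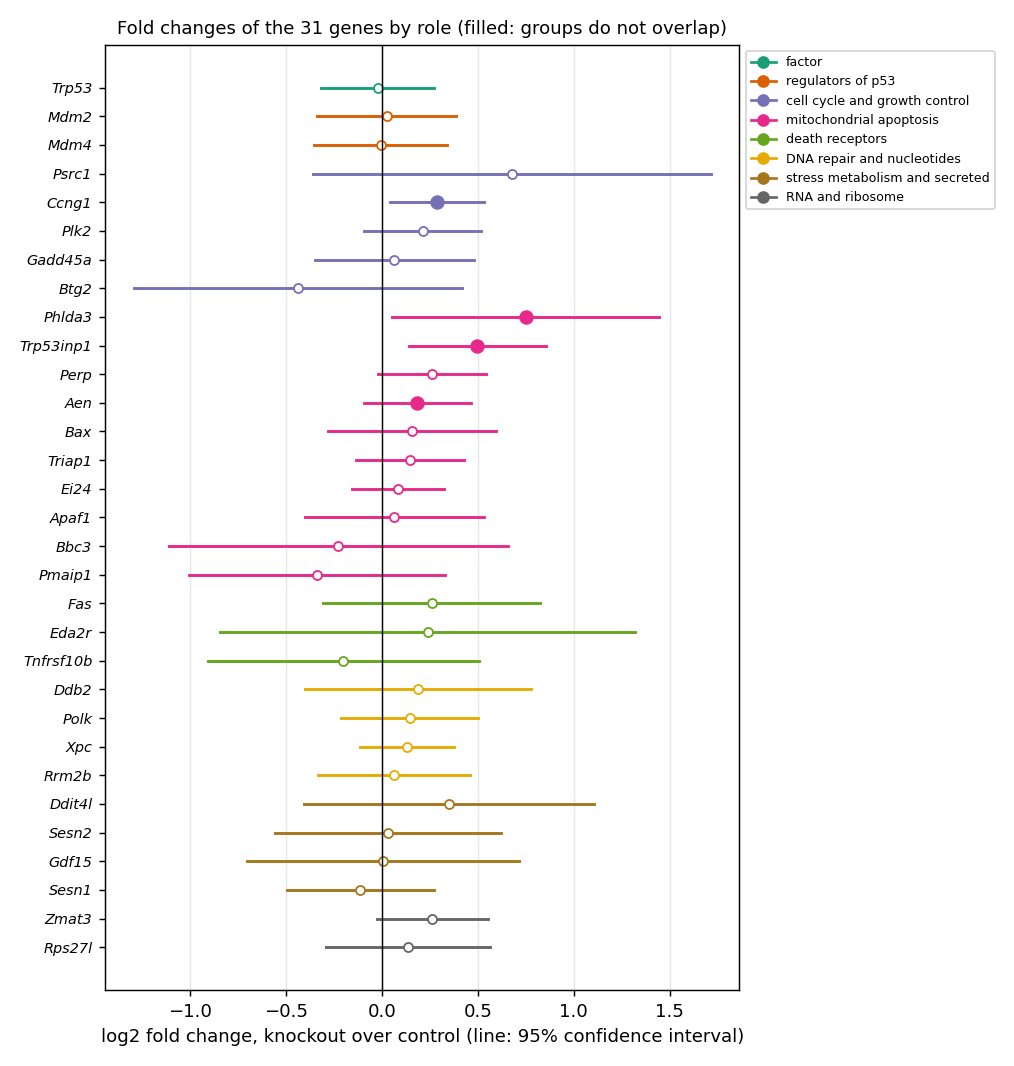
Log2 fold changes of the 31 genes, knockout over control, with 95% confidence intervals from the edgeR fit, coloured by role. Filled points mark the 4 genes whose groups do not overlap, and 28 of the 31 intervals hold 0.

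Trp53 mRNA overlapped fully between the groups. Its normalised counts were 26.9, 28.9 and 28.6 CPM in the knockout libraries and 30.6, 24.2 and 31 CPM in the controls. All knockout values lay inside the range of the controls. The means were 28.1 ± 1.09 and 28.6 ± 3.79 CPM (SD, n = 3 each), and knockout over control was -0.02 on the log2 scale (SE 0.13, 95% interval from -0.32 to 0.27). Trp53 (ENSMUSG00000059552) lies on chromosome 11, 69580359 to 69591873, plus strand, in the coordinates of the deposited table (GRCm38). Its main coding transcript held 66.3% to 77.2% of the gene's estimated counts in the 6 libraries.

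Mdm2, which marks p53 for degradation and is induced by it, had 56.0, 69.3 and 72.0 CPM in the knockout libraries and 54.9, 61.4 and 77.8 CPM in the controls. Its highest and lowest values were both controls. The log2 fold change was 0.02 (SE 0.16, interval -0.34 to 0.38). Mdm4, which binds and blocks the activation domain of p53, stood at 77.2, 87.1 and 83.9 CPM against 73.4, 103 and 72.5 CPM. Control 2 alone was above the rest, and the log2 fold change was -0.01 (SE 0.15, interval -0.36 to 0.34). For these 3 genes of the core circuit the intervals together run from -0.36 to 0.38 on the log2 scale.

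Among the targets that act on cell cycle and growth, Ccng1 (cyclin G1, which directs protein phosphatase 2A to Mdm2) was the most abundant gene of the whole set by count. It held 304, 336 and 281 CPM in the knockout libraries and 249, 253 and 253 CPM in the controls. Every knockout library stood above every control, and the controls were nearly equal. The means were 307 ± 27.3 and 252 ± 1.95 CPM (SD, n = 3 each), a fold of 1.22 and a log2 fold change of 0.29 (SE 0.11, interval 0.04 to 0.53; unadjusted p = 0.0257, edgeR adjusted p = 0.9995). By exact permutation (two-sided) p was 0.1, the smallest value that 3 against 3 libraries can reach. Ccng1 lies on chromosome 11, 40748552 to 40755311, minus strand, and a single transcript held all its counts.

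Btg2, an antiproliferative gene that is also an immediate early gene, had the lowest fold change of the set. Its values were 38.4, 30.7 and 37.5 CPM in the knockout libraries and 34.8, 27.1 and 82.5 CPM in the controls. Only control 3 stood apart, the library with the high immediate early and heat shock genes. Its fitted value of -0.44 (log2, SE 0.37; edgeR adjusted p = 0.9995) became 0.20 without that library. The other genes of this role were higher by label without passing. The kinase Plk2 had 14.3 to 16.5 CPM against 12.7 to 14.4 CPM, and Gadd45a, a damage-induced growth arrest gene, 21.1 to 33.1 CPM against 22.7 to 28.7 CPM. Psrc1, a spindle microtubule gene, was near the lower limit of the data, with 16 to 21 estimated counts in the knockout libraries and 8 to 20 in the controls.

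**Figure D2:**
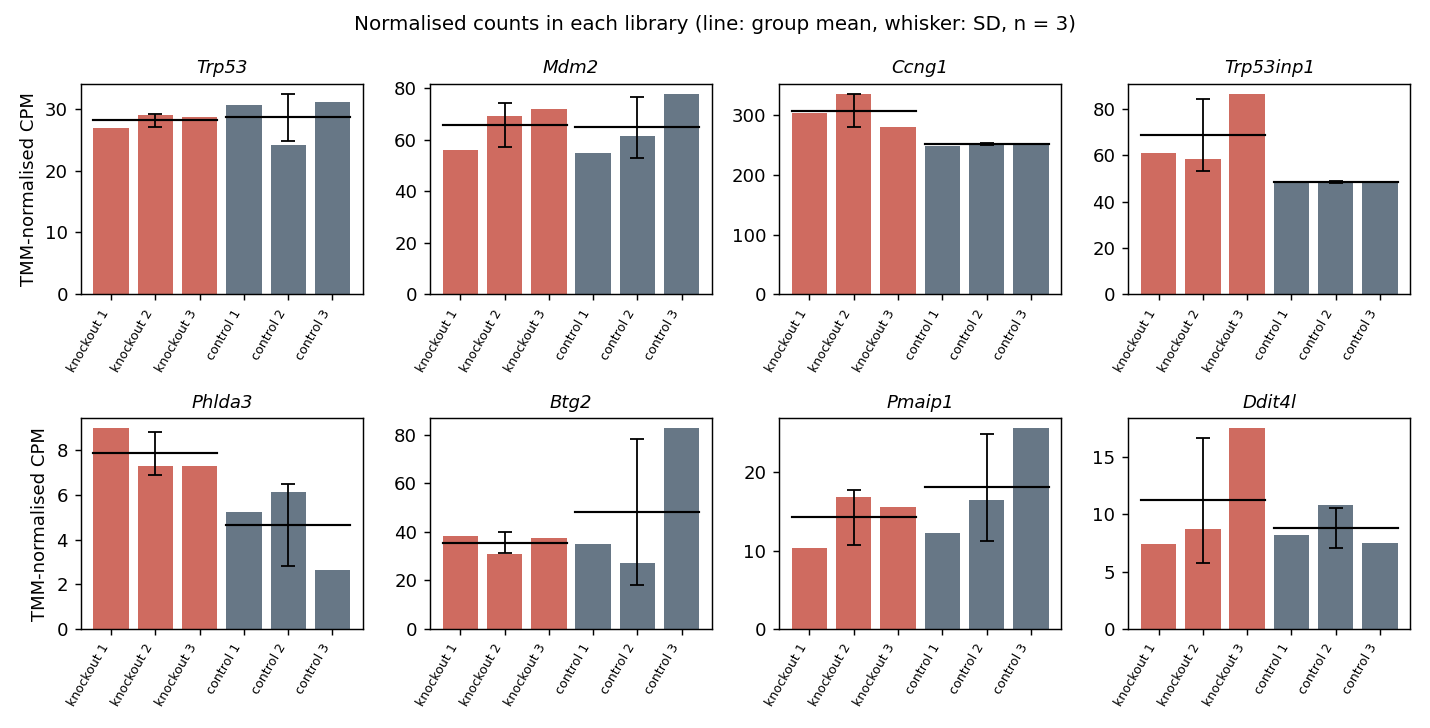
Normalised counts (TMM-normalised CPM, linear axis from 0) of 8 genes in each of the 6 libraries. Bars are single libraries, lines group means and whiskers the SD (n = 3). Ccng1, Trp53inp1 and Phlda3 show no overlap between groups, Btg2 and Pmaip1 are highest in control 3, and Ddit4l is highest in knockout 3.

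Of the 10 genes that act in or beside apoptosis, 8 were higher by label, where 49.0% of all tested genes were, and 0 were called. Groups did not overlap for 3 of the 10, where 4.10% of all tested genes had the knockout libraries higher without overlap. Trp53inp1, a nuclear partner of p53 that also acts in autophagy, had the lowest unadjusted p of the set. It stood at 61.2, 58.4 and 86.7 CPM in the knockout libraries and at 48.7, 48.3 and 49.1 CPM in the controls. All 3 knockout libraries were above the controls, knockout 3 by the widest margin. The means were 68.8 ± 15.6 and 48.7 ± 0.391 CPM (SD, n = 3 each), a fold of 1.41 and a log2 fold change of 0.50 (SE 0.16, interval 0.14 to 0.86; unadjusted p = 0.0125, edgeR adjusted p = 0.9995; exact permutation p = 0.1). Without knockout 3 the log2 fold change was 0.30.

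The deposited split of Trp53inp1 between its transcripts was less even than its total. A coding transcript held 35.4%, 40.4% and 37.6% of the counts in the knockout libraries and 25.5%, 37.5% and 65.0% in the controls. The remainder lay almost wholly on a transcript that GENCODE M21 lists as processed, without a coding frame. The next values are estimated counts, not scaled to library depth. The coding transcript had 374, 374 and 707 in the knockout libraries and 205, 358 and 546 in the controls, with overlap. On this scale the gene total overlapped as well, at 1056, 926 and 1880 against 803, 954 and 841, unlike its CPM. The division of reads between transcripts is the authors' estimate.

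Phlda3, which blocks activation of the kinase Akt, had the largest fold change of the set and also few counts. Its values were 8.98, 7.32 and 7.29 CPM in the knockout libraries and 5.22, 6.13 and 2.63 CPM in the controls. The groups did not overlap, and control 3 was far below the rest. The means were 7.86 ± 0.97 and 4.66 ± 1.82 CPM (SD, n = 3 each), a fold of 1.68 and a log2 fold change of 0.75 (SE 0.30, interval 0.05 to 1.45; unadjusted p = 0.0379, edgeR adjusted p = 0.9995; exact permutation p = 0.1). Without control 3 it was 0.47. Phlda3 lies on chromosome 1, 135766119 to 135769136, plus strand. Groups did not overlap, with the knockout libraries higher, for 8.58% of the 897 tested genes of that chromosome and for 10.2% of the 88 that start within 5 Mb of Phlda3. Of the other members on chromosome 1, Mdm4 and Btg2 did overlap.

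Aen, a nuclease of apoptotic cells, was separated by a thin margin, with 41.3, 51.5 and 41.3 CPM against 41.2, 37.1 and 39.5 CPM. Its log2 fold change was 0.19 (SE 0.12; 0.07 without knockout 2), and only knockout 2 stood clearly above the controls. Perp, a membrane protein of desmosomes and a p53 effector, had 70.5, 72.2 and 80.5 CPM against 70.8, 54.6 and 60.8 CPM. Control 1 fell between knockout 1 and knockout 2, and the log2 fold change was 0.26 (SE 0.12, unadjusted p = 0.0645; edgeR adjusted p = 0.9995).

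The BH3-only genes of the set were the 2 apoptosis genes below 0. Pmaip1 (Noxa) had 10.3, 16.9 and 15.6 CPM in the knockout libraries and 12.2, 16.5 and 25.6 CPM in the controls. Control 3 was highest, as for Btg2, and the log2 fold change of -0.34 (SE 0.29) was -0.01 without it. Bbc3 (Puma) had 3.19, 2.21 and 1.71 CPM against 4.07, 2.48 and 1.75 CPM, with wide overlap (log2 fold change -0.23, SE 0.38). Bax, a pore-forming effector of the mitochondrial route, had 29.3 to 39.0 CPM against 23.3 to 37.5 CPM (0.16, SE 0.19). Apaf1, the scaffold of the apoptosome, had 5.45 to 8.26 CPM against 6.08 to 6.83 CPM. Ei24, a membrane protein of the endoplasmic reticulum, had 144 to 153 CPM against 126 to 151 CPM, and Triap1, an inhibitor of apoptosome formation, 17.8 to 21.2 CPM against 17.3 to 18.4 CPM. The groups overlapped for each of Bax, Apaf1, Ei24 and Triap1.

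The death receptor genes were scarce and overlapped between groups. Fas had 6.25 to 8.72 CPM in the knockout libraries and 4.50 to 7.65 CPM in the controls (log2 fold change 0.26, SE 0.25). Tnfrsf10b, the mouse receptor for TRAIL, had 3.19, 4.60 and 3.46 CPM against 4.61, 2.74 and 5.61 CPM, with the highest and the lowest value both in controls (-0.20, SE 0.31). Eda2r, the receptor for an ectodysplasin isoform, had only 18 to 28 estimated counts in the knockout libraries and 10 to 32 in the controls, and the 95% interval of its log2 fold change ran from -0.85 to 1.32.

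All 4 genes of DNA repair and nucleotide supply had fitted values above 0, where 49.0% of all tested genes did. None was larger than 0.19. Xpc and Ddb2, which recognise damage in nucleotide excision repair, stood at 0.13 (SE 0.11) and 0.19 (SE 0.26). Polk, a polymerase that copies past lesions, was at 0.14 (SE 0.16) and Rrm2b, the p53-inducible subunit of ribonucleotide reductase, at 0.06 (SE 0.17). Levels ran from 5.67 CPM for Ddb2 in control 3 to 63.1 CPM for Xpc in knockout 3, and the groups of each gene overlapped. The gene sums of Ddb2, Gadd45a and Bax were not within 0.01 counts of whole numbers in all libraries, unlike those of the other 28 genes.

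Targets that act on metabolism and stress signals had a median of 0.019 over 4 genes. Sesn1, an antioxidant and mTORC1-restraining sestrin, had 22.4, 15.4 and 20.8 CPM against 21, 23.3 and 19 CPM. Knockout 2 was lowest, and the log2 fold change was -0.11 (SE 0.17). Sesn2 spread from 44.5 to 77.0 CPM and from 50.7 to 85.5 CPM (0.03, SE 0.26). Gdf15, a secreted stress hormone, had 18.3 to 24.9 CPM against 11.9 to 30.8 CPM (0.01, SE 0.31), with both extremes in controls. Ddit4l, an inhibitor of mTORC1, had 7.42, 8.77 and 17.5 CPM against 8.19, 10.8 and 7.48 CPM. Knockout 3 alone stood out, and the log2 fold change of 0.35 (SE 0.33) was -0.13 without it. Sesn2 and Gdf15 also answer to the integrated stress response, whose 10 listed genes summed to 658 to 693 CPM in the knockout libraries and 549 to 830 CPM in the controls (5 higher and 5 lower).

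Zmat3, a zinc finger protein that binds RNA, had 39.9, 45.5 and 35.5 CPM in the knockout libraries and 31.9, 32.1 and 36.7 CPM in the controls. Only knockout 3 fell below a control, and the log2 fold change was 0.26 (SE 0.13, unadjusted p = 0.07; edgeR adjusted p = 0.9995). Rps27l, a ribosomal protein gene that p53 induces and that resembles Rps27, had 48.4 to 71.9 CPM against 43.1 to 63.6 CPM (0.13, SE 0.19).

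Levels per transcript length, taken from the deposited FPKM summed over transcripts, spanned from Eda2r at 0.338 to Rps27l at 111 (means of the 6 libraries). Rps27l (83.4 to 143 FPKM) and Ccng1 (68.4 to 94.4 FPKM) overlapped in range. Ei24, at 61.9 to 68.2 FPKM, lay below the lowest Ccng1 value. Perp (29.7 to 42.0 FPKM) and Bax (26.2 to 41.8 FPKM) came next and could not be ordered. Mdm2 averaged 25.1 FPKM, Mdm4 16.9 FPKM and Trp53 15.2 FPKM, and the ranges of the last pair overlapped. At the bottom, Bbc3, Tnfrsf10b, Apaf1, Psrc1 and Eda2r averaged from 1.53 down to 0.338 FPKM.

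**Figure D3:**
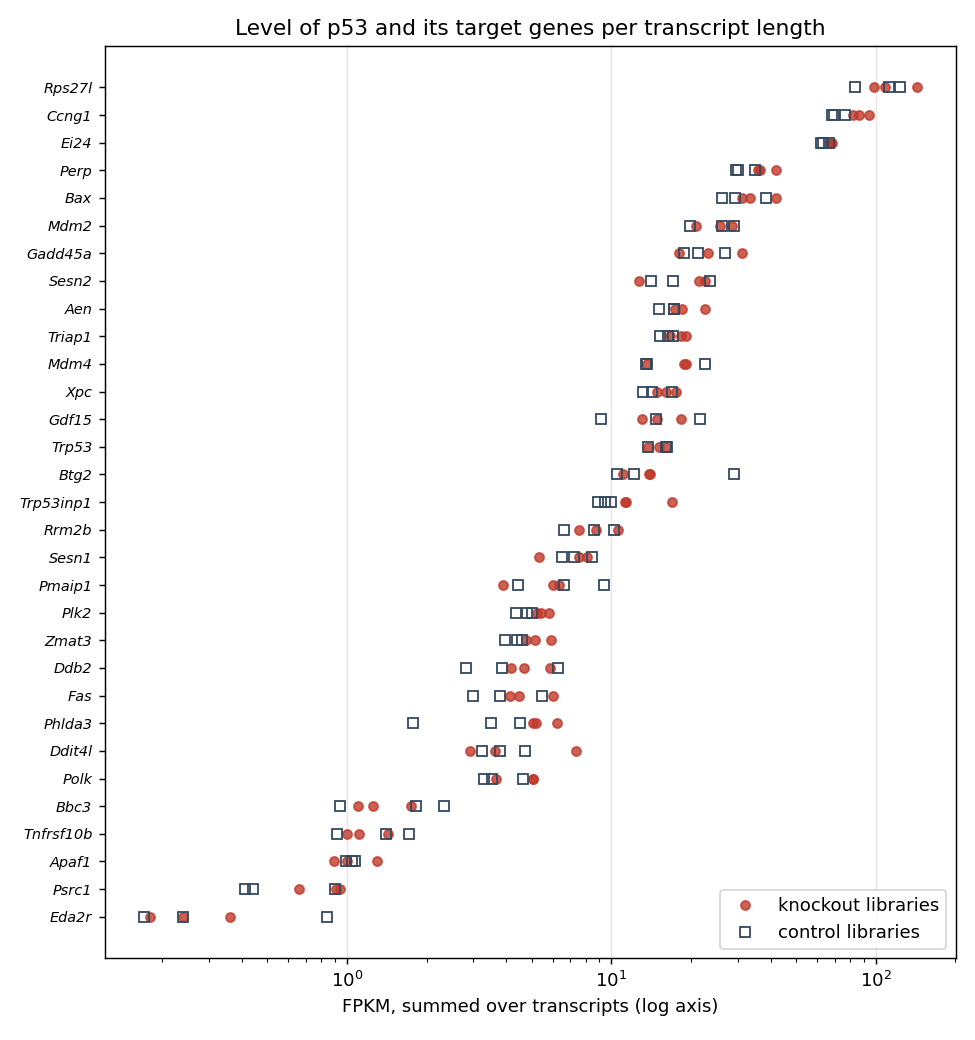
Deposited FPKM, summed over transcripts, of the 31 genes in each library (log axis), ordered by the mean of the 6 libraries. Filled circles are knockout and open squares control libraries. Levels run from below 1 FPKM for Eda2r and Psrc1 to about 111 FPKM for Rps27l, and most neighbours in the order overlap.

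Across libraries, the set was described by its sums and by where each gene peaked. The summed level was 1311, 1337 and 1348 CPM in the knockout libraries and 1216, 1172 and 1241 CPM in the controls. Without Ccng1 the sums were 1006, 1001 and 1066 CPM against 966, 920 and 988 CPM. Both sums separate the groups, the second by a narrow margin. The second sum still holds Trp53inp1, Phlda3 and Aen, whose own groups do not overlap. Sums of other gene sets were not compared, so the separation describes these sums alone. The median deviation of the genes from their own means was 0.057, 0.081 and 0.020 (log2) in the knockout libraries and -0.136, -0.076 and -0.135 in the controls. Different genes peaked in different libraries: knockout 2 held the highest value of 8 genes, knockout 3 of 7 and control 3 of 6. Control 2 held the lowest value of 10 genes and control 3 of 8.

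**Figure D4:**
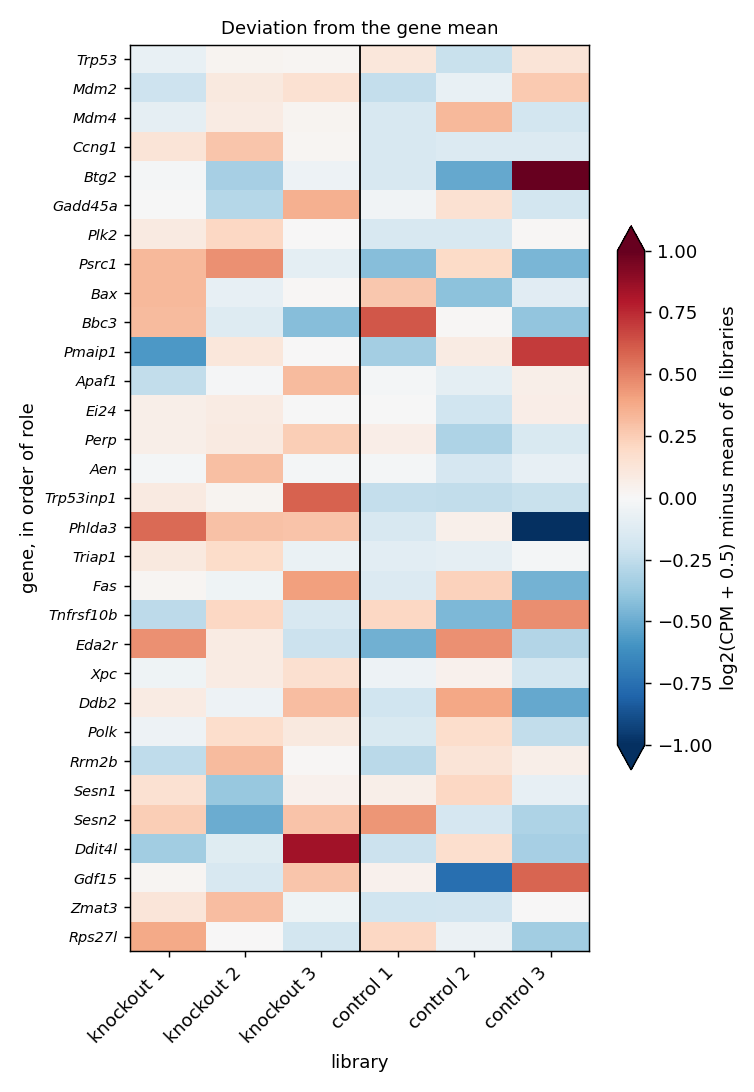
Deviation of each gene's log2(CPM + 0.5) from its mean over the 6 libraries, with genes in order of role and the black line between knockout (left) and control (right) libraries. Colours saturate at 1 in either direction. Control 3 is high for Btg2, Pmaip1 and Gdf15 and low for Phlda3, and knockout 3 is high for Ddit4l and Trp53inp1.

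Knockout 3, in which Trp53inp1 and Ddit4l peaked, also had the highest level of Cdkn1a, the p53 target p21 that inhibits cyclin-dependent kinases. Cdkn1a and Havcr1 are named here after their values were seen. Cdkn1a stood at 12.4, 19.0 and 37.5 CPM in the knockout libraries and 18.9, 15.3 and 10.4 CPM in the controls, with overlap. Of 6 tubular injury markers, Havcr1 was highest in knockout 3, at 10.7 CPM against 1.07 to 5.72 CPM in the other libraries, and none of the other markers peaked there. Lcn2 was highest in knockout 1, Krt20 in control 1, Vcam1 and Spp1 in control 2 and Sox9 in control 3. The list summed to 753, 644 and 680 CPM in the knockout libraries and 535, 792 and 588 CPM in the controls. The part of these levels in the values of the set was not tested.

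A list of 31 other p53 targets showed no shift upward. Of 28 tested, 0 were called, and the median of their fold changes was -0.020 (log2). Of the 28, 11 were higher and 17 lower, where 49.0% of all tested genes were higher. The most abundant were Cyfip2 (-0.03, SE 0.11), Dglucy (listed as 9030617O03Rik; 0.18, SE 0.12), Igfbp3 (-0.18, SE 0.18) and Dcxr (-0.01, SE 0.12). Cdkn1a, whose levels are given above, also belongs to this list. Its groups overlapped, at 0.63 (SE 0.39; unadjusted p = 0.144, edgeR adjusted p = 0.9995). Groups did not overlap for 4 of the 28, named here after their values were seen: 1 with the knockout libraries higher (4.10% of all tested genes) and 3 with them lower (4.08%). Gtse1, a mitotic gene that restrains p53, was scarce and higher by label (0.631 to 1.01 CPM against 0.152 to 0.409 CPM), and the matrix protein gene Thbs1, the chemokine gene Cx3cl1 and Trp53i11 were lower by label. These 4 were also the genes of the 28 with unadjusted p under 0.05 by edgeR, where 3.23% of all tested genes had such a value. For Thbs1 the log2 fold change was -0.74 (SE 0.31), with 138 CPM in control 3. Its lowest control had 60.3 CPM and its highest knockout 60.2 CPM.

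Regulators upstream of p53 centred on 0. Of 24 listed, 22 were tested, 12 were higher and 10 lower with a median of 0.007, and 0 were called. Of all tested genes, 49.0% were higher and 0.0133% were called, with a median of -0.005. The ribosomal proteins Rpl5 and Rpl11, which can bind Mdm2, stood at -0.07 (SE 0.11) and 0.02 (SE 0.13). The deubiquitinase Usp7 was at 0.06 (SE 0.10) and Trp53bp2 at 0.06 (SE 0.14). Groups did not overlap for 1 of the 22, with the knockout libraries higher, where this held for 4.10% of all tested genes. That gene was Chek2, a kinase of the damage checkpoint that phosphorylates p53, chosen here after its value was seen. It had 3.59, 3.41 and 4.52 CPM against 2.73, 2.89 and 2.34 CPM (0.54, SE 0.24; unadjusted p = 0.0521, edgeR adjusted p = 0.9995). Cell cycle genes that p53 lowers through p21 were sparse, with 12 of 16 tested and 0 called. Of the 12, 8 were higher (49.0% of all tested genes were) and 4 lower, with a median of 0.244. Of these, Mki67 was at -0.09 (SE 0.26), Kif23 at 0.36 (SE 0.41), E2f1 at 0.53 (SE 0.28) and Top2a at 0.16 (SE 0.40).

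Precision differed across the set. The median SE was 0.180 on the log2 scale, and for 24 of the 31 genes the whole 95% interval lay between -1 and 1. Intervals reached past those bounds for Btg2, Psrc1, Bbc3, Pmaip1, Phlda3, Eda2r and Ddit4l, so a difference of that size is not excluded for these genes.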

How the data were processed

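RNA-seq libraries of mouse kidney were compared, 3 knockout against 3 control. The authors deposited estimated counts and FPKM per transcript for each library. Per the submitters' processing notes, the build was GRCm38, the tools named include HISAT2 2.0.1 and Cuffdiff 2.2.1, and cutadapt 1.9.1, FastQC 0.10.1 and bcl2fastq 2.17.1.14 are also named, without roles. The sources used here name neither the program behind the estimated counts nor the use of strand, so reads shared by overlapping genes or near-identical copies may be divided between them.

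Estimated counts were summed per gene symbol, rounded, scaled by TMM and filtered with filterByExpr (minimum count 10). Genotypes were compared with edgeR 4.0.16 (quasi-likelihood test, R 4.3.3), with Benjamini-Hochberg adjustment over 15017 genes at a threshold of 0.05. SEs were derived from the fold change and the F statistic. Single genes had an exact two-sided permutation test on log2(CPM + 0.5) (scipy 1.17.1). The edgeR step was tested on simulated data. The p53 genes and all other lists were chosen with earlier results of these data known. Values in every library are given for Trp53, Mdm2, Mdm4, Ccng1, genes without overlap and the 5 lowest p-values in each direction. From other lists, up to 4 of the most abundant genes are named, and others are marked as chosen after their values were seen. Alternatives were DESeq2 1.42.0, limma 3.58.1 on log2(FPKM + 1) and log2(FPKM + 0.1), median-of-ratios scaling, no filter, sums per Ensembl gene ID, a replicate block and leaving out each library. Total counts were 16061435 to 21261226 per library, and 3 counts correspond to 0.141 to 0.187 CPM.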

Additional observations from a re-analysis of the deposited data

How the results depend on the processing

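No gene of the p53 set was called in any of the 7 other fits or on leaving out a library. Their median log2 fold change of 0.135 ranged from 0.081 to 0.146 on leaving out 1 library. Over all genes, the 2 calls became 5 without the expression filter, 15 by DESeq2, 1 by limma on log2(FPKM + 1), 1 on log2(FPKM + 0.1), and 1 to 6 on leaving out a library. The 4 genes without overlap became 8 by CPM without TMM, 8 in the deposited FPKM and 4 to 11 on leaving out a library. The share over all tested genes went from 4.10% to 4.78%, 4.39% and 7.03% to 10.8% in the same order. Leaving out a library can only keep or raise such a count. The alternative counts of genes without overlap were added after seeing the data. The cause of the other shifts was not tested.

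Correlations of same-numbered deviations were 0.09, -0.09 and 0.12, and those of the other pairs ran from -0.17 to 0.08. With 3 libraries per group, these values cannot settle whether the replicate numbers pair the libraries. With a replicate block, 2 genes were called and the median of the set was 0.133, and Mdm4 stood at 0.0115 in place of -0.01. Mdm4 was also above 0 by limma, at 0.0771 with FPKM + 1 and 0.0824 with FPKM + 0.1. Gdf15 was at -0.0002 by DESeq2. Psrc1 and Eda2r were below the FPKM minimum of 1 for limma.

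Of the 31 genes, 15 kept their sign in every alternative and 16 changed it on leaving out a library. The ranges over left-out libraries were -0.1291 to 0.0401 for Trp53, -0.0799 to 0.179 for Mdm2, -0.0958 to 0.1815 for Mdm4, -0.7248 to 0.2016 for Btg2 and -0.1224 to 0.2024 for Gadd45a. They were -0.501 to 0.1524 for Bbc3, -0.1105 to 0.1977 for Apaf1, -0.4494 to 0.0331 for Tnfrsf10b, -0.0421 to 0.791 for Eda2r, -0.0019 to 0.5017 for Ddb2 and -0.1002 to 0.194 for Rrm2b. They were -0.2198 to 0.0252 for Sesn1, -0.1089 to 0.2964 for Sesn2, -0.1286 to 0.5775 for Ddit4l, -0.2852 to 0.3737 for Gdf15 and -0.0403 to 0.2833 for Rps27l.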

Other observations

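The deposited transcript estimates of Eda2r differed from its gene total. The coding transcript had 27, 18 and 18 estimated counts in the knockout libraries and 7, 17 and 7 in the controls, while a transcript with a retained intron had 1, 0 and 0 against 3, 10 and 6. These are counts not scaled to library depth, few in number, and no test was made on them. The totals of the gene overlapped between groups. For Mdm2, a transcript with a retained intron held 6.69%, 6.61% and 9.91% of the counts in the knockout libraries and 6.57%, 11.7% and 13.8% in the controls.

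The 2 main coding transcripts of Apaf1 traded places between libraries of 1 group. One held 51.7%, 100% and 59.3% of the counts in the knockout libraries and 98.8%, 45.6% and 79.9% in the controls, on totals of 94 to 179 estimated counts, while the gene total stayed between 5.45 and 8.26 CPM.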
